A study of Mus musculus with 1086 samples.

Results

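Liver messenger RNA of C57BL/6J (B6) and A/J (AJ) males on a high fat diet was compared in the founder part of the series. The animals were chosen by their labels, as founder libraries whose column name starts with B6_ or AJ_ and whose diet is high fat. This gave 16 of 128 founder animals, 8 of each strain, in a series whose labels list 1086 sequencing records. Both strains are inbred, and the labels name no transgene or other treatment for them. The males came from The Jackson Laboratory, ate their diet from 4 weeks of age, and were killed at 26 weeks, when liver was snap frozen. The labels give the founder diets in terms of energy, as 45% of kcal from fat with 34% sucrose by weight against 17% of kcal from fat. They also give them by weight, as 22% against 6% fat, and which description holds for the founders was not settled here. The 8 B6 and 8 AJ males on the control diet, called chow below, served to show which strain differences were also present without high fat. The 6 other founder strains (129S1, CAST, NOD, NZO, PWK and WSB, 8 males each on high fat) served to place B6 and AJ among them; NZO males were killed younger than the rest, per the labels. Each animal is a separate male of an inbred strain, so p-values measure the spread among animals of these strains.

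As background, B6 is the strain most used to study diet-induced obesity and fatty liver, and A/J is known for gaining less weight on the same diets. Body weight and liver fat were not analysed here. Hepatocytes store surplus fatty acids as triglyceride in lipid droplets. Droplets are coated by perilipins, enlarged by the CIDE proteins (CIDEA and CIDEC) and emptied by lipases. PPAR-gamma switches on many of these genes in fat cells, and in the liver its level is known to rise in steatosis. SREBP-1c drives fatty acid synthesis, and PPAR-alpha drives fatty acid oxidation.

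Values are count equivalents, the deposited signal of a gene times 1 constant, which puts the authors' scaled signal back on about the scale of read counts. Differences are B6 minus AJ on the scale of log2(count equivalents + 1), with the standard error (SE) and the Benjamini-Hochberg adjusted p of limma, and a gene was called at an adjusted p under 0.05. Count equivalents are not divided by gene length, so levels are not compared between genes. The recovered totals of the 16 libraries were 6.22e+06 to 1.07e+07 counts (median 8.44e+06). Over 500 genes that separate the strains, the founder libraries were nearest to their own strain except 2 of 128, and the 16 high fat libraries of B6 and AJ each matched their label. The library labelled B6 chow replicate 4 was nearest to NOD, and the library labelled NOD high fat replicate 3 was nearest to B6. The main counts that use chow animals are therefore also given without both. Some list counts and values of single genes on chow are given with all libraries only. Some libraries stood apart within their group on high fat: B6 replicate 5, with low Mup and high collagen and macrophage genes, and AJ replicates 2 (interferon genes) and 6 (acute phase genes). On chow, B6 replicate 5 had the lowest median correlation with its own group among the B6 and AJ libraries (0.9212), below B6 replicate 4 (0.9281). B6 chow replicate 5 was nearest to its own strain and was kept. The liver markers albumin (Alb) and transferrin (Trf) were at 88159.9 count equivalents or more in each of the 16 animals.

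On high fat, B6 and AJ livers differed in 3392 of 13536 genes tested, or 25.1%. In B6, 1805 genes were higher (13.3%) and 1587 were lower (11.7%), which makes 53.2% of the calls higher in B6. With libraries scaled to equal totals, 74.01% of 3282 calls were higher in B6 (2429 against 853), since the median difference over all genes then moved from -0.003 to 0.10. A difference beyond 2-fold was found in 1039 of the called genes, 678 higher and 361 lower in B6. The values of all 8 B6 animals lay outside those of all 8 AJ animals in 893 genes (6.6%), with 488 higher and 405 lower in B6. These shares are the background for the counts that follow, and the median over all genes tested, -0.003, is the background for each list's median.

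Genes of lipid droplets and lipid uptake were called in 1 direction, higher in B6. Of 21 genes on this list, 20 passed the filter on low values, 13 were higher in B6, none was lower by limma or the rank-sum test (0 at an unadjusted p under 0.05), and the median difference was 1.14. There was no overlap between the strains in 7 of the 20, and 10 of the 20 had a B6 mean above that of each of the 6 other strains. Over all genes tested the B6 mean was above the others in 11.6%. Among genes called and more than 2-fold higher in B6 it was in 36.7%. The genes that differed covered droplet coat proteins, droplet fusion, lipase regulation, lipid uptake and the transcription factor Pparg. The starting regions of 4 members are printed to show the DNA ahead of genes that were higher in B6 (Cidec, Plin2 and Cd36) and of a member that did not pass the test (Fabp1). Each is the 250 bases upstream of the RefSeq start (GRCm38.p6), 5′ to 3′ on the gene's strand, with capitals for AGGTCA, the hexamer bound by PPARs and other nuclear receptors, or for the spaced repeat AGGNCANAGGNCA, on either strand. They lie at chr6:113435761-113436010 (Cidec, minus strand), chr4:86670060-86670309 (Plin2, minus strand), chr5:17835897-17836146 (Cd36, minus strand) and chr6:71199629-71199878 (Fabp1, plus strand).
Cidec: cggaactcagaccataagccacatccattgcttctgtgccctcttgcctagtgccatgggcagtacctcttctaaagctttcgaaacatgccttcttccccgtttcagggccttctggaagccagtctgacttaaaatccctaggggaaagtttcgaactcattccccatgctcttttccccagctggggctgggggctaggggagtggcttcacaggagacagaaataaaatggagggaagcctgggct
Plin2: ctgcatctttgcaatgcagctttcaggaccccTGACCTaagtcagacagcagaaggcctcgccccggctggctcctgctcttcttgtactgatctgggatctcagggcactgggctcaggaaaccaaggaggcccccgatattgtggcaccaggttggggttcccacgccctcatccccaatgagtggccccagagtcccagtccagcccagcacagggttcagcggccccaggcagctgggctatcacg
Cd36: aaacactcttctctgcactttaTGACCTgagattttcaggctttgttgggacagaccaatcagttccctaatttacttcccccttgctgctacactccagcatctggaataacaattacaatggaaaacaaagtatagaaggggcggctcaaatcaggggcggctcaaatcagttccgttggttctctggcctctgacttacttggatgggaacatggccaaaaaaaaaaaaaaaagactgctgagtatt
Fabp1: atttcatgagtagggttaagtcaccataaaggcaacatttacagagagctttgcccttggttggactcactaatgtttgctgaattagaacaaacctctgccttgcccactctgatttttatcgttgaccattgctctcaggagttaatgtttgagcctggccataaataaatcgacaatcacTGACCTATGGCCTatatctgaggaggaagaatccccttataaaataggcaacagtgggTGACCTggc
AGGTCA was found in the Plin2 window at 218 to 213 bases upstream and in the Cd36 window at 228 to 223 bases upstream. The Fabp1 window held it at 67 to 62 and at 9 to 4 bases upstream, the first of which is also the end of a spaced repeat at 67 to 55. The Cidec window, 1 of 2 listed starts, held no match. Of the 21 listed genes 17 matched a promoter, and 5 of these held AGGTCA (Plin2, Cd36, Fabp1, Pparg and Plin5), against 4607 of 32851 promoters of the same length, or 14%. The spaced repeat was found in 1 of the 17 and in 0.338% of the 32851. A match is a run of letters and was not tested as a binding site.

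The CIDE genes stood out within the list. Cidec, which moves lipid from small droplets into larger ones, was at 102.9, 363 and 1755 count equivalents (lowest, median, highest) in B6 and at 9.44, 20.6 and 106.6 in AJ. Its difference was 3.87 ± 0.62 (SE, n = 8 against 8, limma adjusted p = 1.9e-07), a 14.6-fold difference, and the highest AJ animal just exceeded the lowest B6 animal. Cidea, a relative of Cidec best known from brown fat and from fatty livers, was at 2.57, 92.1 and 330.5 in B6, against 0, 0.429 and 2.47 in AJ. The groups did not overlap, and the difference was 5.29 ± 0.42 (adjusted p = 1.1e-20). The SD was 2.25 in B6 and 0.72 in AJ on the log2 scale, while the SE rests on the pooled spread. In AJ, Cidea was near the level of 1 count or less in most animals. Cideb, the family member of normal liver, differed little, by 0.28 ± 0.09 (adjusted p = 0.019), and this call was lost without AJ replicate 6 (0.21, adjusted p = 0.11).

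Droplet coats and lipases followed. Plin2, the main perilipin of hepatocytes, was at 3260, 5096 and 8779 in B6 and at 1164, 1553 and 2812 in AJ, with no overlap and a difference of 1.52 ± 0.32 (adjusted p = 7.5e-05). Plin4, a perilipin of fat cells, was at 248, 1059 and 1478 against 43.1, 169.3 and 335 (2.22 ± 0.49, adjusted p = 0.0002). Plin3, a more general perilipin, differed by 0.63 ± 0.14 (adjusted p = 0.00022). G0s2 codes for an inhibitor of the lipase ATGL. It was at 597, 808 and 1315 in B6 and at 15.3, 83.2 and 176 in AJ, without overlap (3.58 ± 0.64, adjusted p = 4.1e-06). Lipe, the hormone-sensitive lipase, was also higher in B6, at 89.2, 138.97 and 227 against 25.1, 56.8 and 68.5 (1.46 ± 0.21, adjusted p = 1.4e-08). Pnpla2, which codes for ATGL itself, did not pass the test (0.17 ± 0.21, adjusted p = 0.59).

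Genes for bringing in and re-esterifying lipid were higher in B6 too. Cd36, a fatty acid transporter, was at 712, 1424 and 2906 in B6 and at 216, 485 and 789 in AJ (adjusted p = 1.8e-07, 3.48-fold), and the groups overlapped at their edges. Mogat1, which makes diacylglycerol from monoacylglycerol, was at 9.44, 31.3 and 74.4 against 0.959, 2.48 and 4.94 (3.02 ± 0.39, adjusted p = 2.3e-10). Vldlr, the receptor for very low density lipoprotein, was low in both strains, at 14.5, 20.8 and 78.6 against 1.92, 7.8 and 22.7 (1.64 ± 0.48, adjusted p = 0.0059). Fabp2, a fatty acid binding protein of gut that is also made in liver, differed by 0.83 ± 0.18 (adjusted p = 0.00011). Fabp1, the abundant liver fatty acid binding protein, did not pass (0.13 ± 0.19, adjusted p = 0.68). Pparg was at 76.3, 88.6 and 263 in B6 and at 20.2, 29.2 and 42 in AJ, with no overlap (2.03 ± 0.34, adjusted p = 9.9e-07). Fitm1, named by the size of its difference and not a member of the list, codes for a protein that helps package triglyceride into droplets. It was at 155.3, 229 and 337 in B6 and at 11.1, 22.9 and 29.2 in AJ, again with no overlap (3.34 ± 0.30, adjusted p = 4.6e-18).

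**Figure D1:**
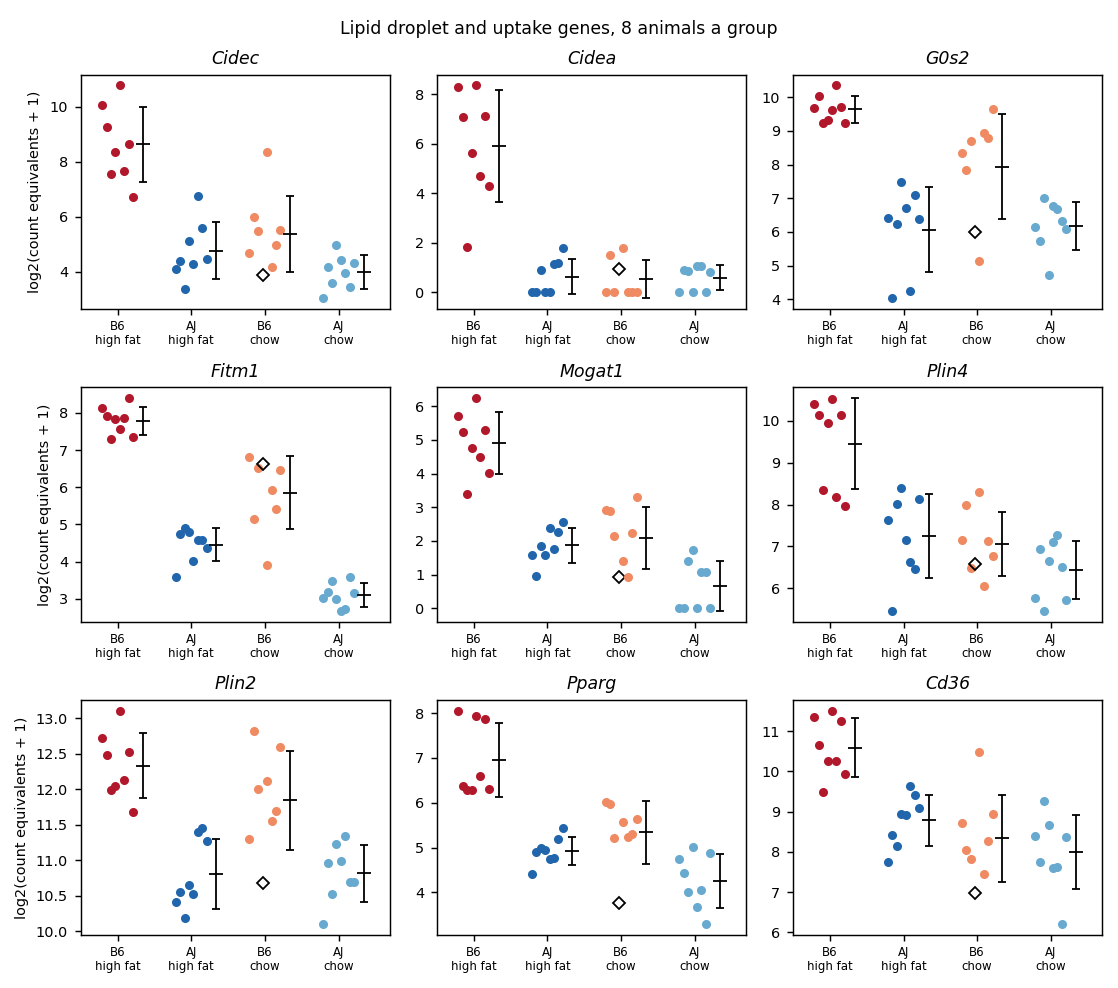
Level of 9 lipid genes as log2(count equivalents + 1) in B6 and AJ males on high fat and on chow, with 1 point per animal and bars for the mean and SD (n = 8 per group); the open diamond is the library labelled B6 chow replicate 4. The B6 animals on high fat hold the highest level of Cidec, at 1755 count equivalents, and their Cidea values spread from 2.57 to 330.5.

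Within the B6 group the called lipid genes varied together by animal. Of the 13 genes, B6 replicate 5 had the highest value in 8, and B6 replicate 1 was among the highest 2 animals in 10. B6 replicates 3 and 8 were each among the lowest 2 animals in 11 of the 13. Cidea, for example, was at 330.5 and 311.6 count equivalents in B6 replicates 5 and 1, and at 2.57 and 18.6 in replicates 3 and 8. In AJ the highest values of the 13 genes were spread over 6 animals, with at most 5 in 1 animal (replicate 8). Liver fat of these animals was not analysed here. Leaving out B6 replicate 5 left all 13 calls of the list in number, and Cidec then differed by 3.56 (adjusted p = 3.4e-06).

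Of 21 genes of fatty acid and triglyceride synthesis, 8 were higher in B6, 1 was lower, and the median difference was 0.62. Scd1, the desaturase that makes oleate, was at 95110, 152159 and 260288 in B6 and at 16442, 35139 and 54928 in AJ. The groups did not overlap (2.12 ± 0.46, adjusted p = 0.00013, 4.34-fold). Srebf1, which codes for SREBP-1, was at 1586, 1975 and 2947 against 328, 817 and 1350, also without overlap (1.31 ± 0.31, adjusted p = 0.00045). Its lowest AJ value came from replicate 6. Fasn, fatty acid synthase, was at 1817, 3036 and 5459 against 820.5, 1454 and 2220 (1.18 ± 0.31, adjusted p = 0.0021). Acacb, which makes the malonyl-CoA that restrains mitochondrial oxidation, was at 595, 1150 and 1657 against 313, 454 and 819.7 (1.22 ± 0.30, adjusted p = 0.00079). Gpam, the first acyltransferase of triglyceride synthesis, and Me1, which supplies NADPH, were higher by 0.83 ± 0.25 (adjusted p = 0.0081) and 0.94 ± 0.32 (adjusted p = 0.02). The Gpam call was lost without AJ replicate 6 (0.63, adjusted p = 0.060) and that of Me1 without B6 replicate 5 (0.78, adjusted p = 0.076). Dgat2, which completes triglyceride, was the lower gene (-0.41 ± 0.13, adjusted p = 0.016). Without B6 replicate 5 the count was 5 higher and 1 lower. With libraries scaled to equal totals it was 11 higher and 0 lower by limma, and Dgat2 then differed by -0.30 (adjusted p = 0.093).

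Of 28 fatty acid oxidation and PPAR-alpha target genes, 4 were higher in B6 and none was lower by limma (1 lower at an unadjusted p under 0.05, 0 by the rank-sum test), with a median of 0.12. Over all genes tested 13.3% were higher and 11.7% lower in B6, so the count of higher genes was near the background. Vnn1, a pantetheinase and a PPAR-alpha target, was at 495, 833 and 1306 in B6 and at 35.9, 68.6 and 123.6 in AJ (3.71 ± 0.47, adjusted p = 8.4e-11). The groups did not overlap. Slc25a20, the mitochondrial carnitine carrier, differed by 0.56 ± 0.15 (adjusted p = 0.0031), and Cyp4a31, a fatty acid hydroxylase from a family of near-identical genes, by 2.14 ± 0.71 (adjusted p = 0.017). The Cyp4a31 call was lost without AJ replicates 2 and 6 (1.62, adjusted p = 0.12) and with a pseudocount of 0.1 (adjusted p = 0.089). Cpt1a, which lets fatty acids into mitochondria, was at 4347, 6157 and 7201 against 4476, 5602 and 6350, and did not pass the test (0.09 ± 0.16, adjusted p = 0.74). Fgf21, a fasting hormone of liver, did not pass either (1.10 ± 0.63, adjusted p = 0.20).

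**Figure D2:**
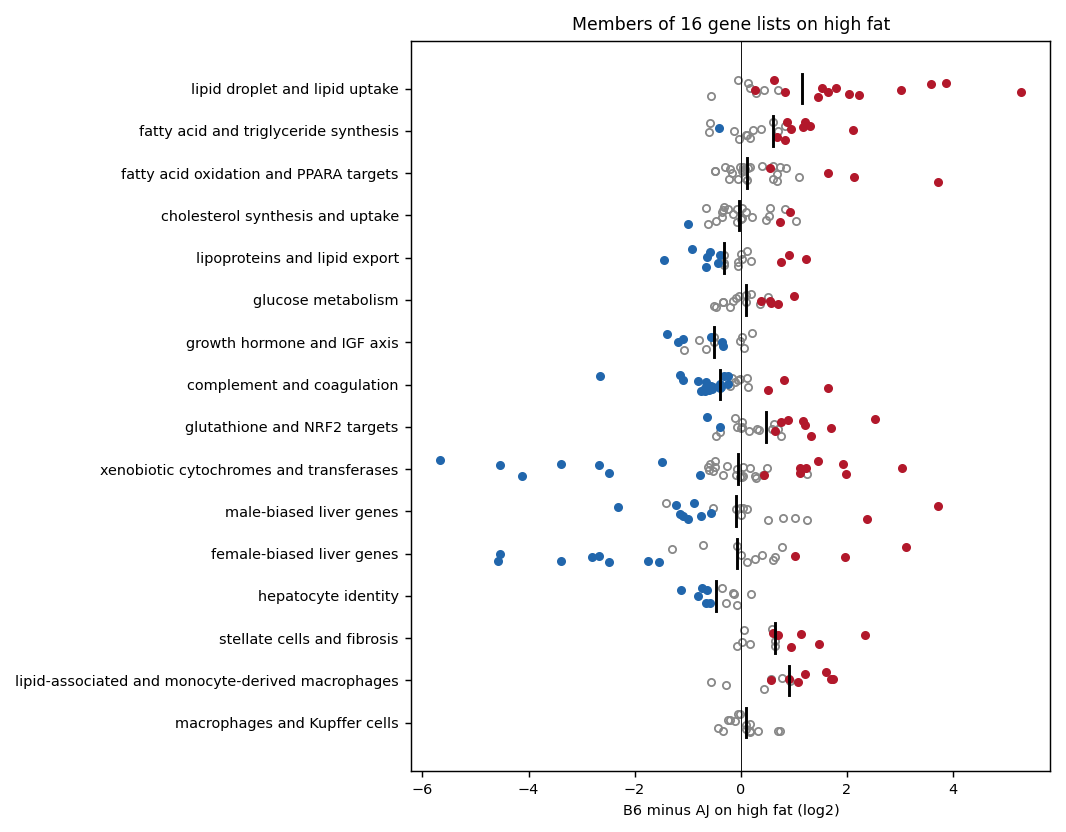
B6 minus AJ difference on high fat, in log2 units, for each tested gene of 16 lists; filled red points were higher and filled blue points lower in B6 at an adjusted p under 0.05, open points did not pass, and the black bar is the list's median. The lipid droplet list (median 1.14) lies to the right of 0, and the complement and coagulation list (median -0.39) to its left.

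Of 19 lipoprotein genes, 3 were higher and 7 lower in B6, with a median of -0.31 (3 higher and 5 lower with libraries scaled to equal totals). Scarb1, the liver receptor that takes up cholesterol from HDL, was at 979, 1317 and 1484 in B6 and at 2153, 2413 and 3035 in AJ, without overlap (-0.92 ± 0.12, adjusted p = 1e-09). Lcat, which esterifies cholesterol on HDL, and Apoa1, the main HDL protein, were lower by -0.63 ± 0.09 (adjusted p = 2e-09) and -0.65 ± 0.14 (adjusted p = 9.6e-05). Apoh, an apolipoprotein that binds phospholipid, was lower by -0.58 ± 0.09 (adjusted p = 3.8e-08). In contrast, Apoc2, the cofactor of lipoprotein lipase, was higher by 0.90 ± 0.15 (adjusted p = 3.9e-07). Apoa4, an apolipoprotein known to follow liver fat, was at 4406, 11558 and 42441 in B6 and at 4538, 5859 and 6590 in AJ (1.22 ± 0.31, adjusted p = 0.0015). The B6 animals ranged widely for Apoa4, and the lowest of them lay below the AJ range.

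Cholesterol and bile acid genes were called in both directions. Of 24 tested cholesterol genes 2 were higher and 1 was lower (median -0.03). They included Sc5d, a late step of cholesterol synthesis (0.74 ± 0.23, adjusted p = 0.012) and Hsd17b7, another late step (-0.996 ± 0.22, adjusted p = 0.00021). Of 19 bile acid genes 2 were higher and 3 lower (median -0.04). The counts of both lists were near or under the background of 13.3% higher and 11.7% lower over all genes tested. Abcb11, the bile salt export pump, was higher by 0.71 ± 0.14 (adjusted p = 3.5e-05). Cyp7b1, of the alternative bile acid pathway, and Cyp2c70, which makes muricholic acids, were lower by -1.22 ± 0.31 (adjusted p = 0.0011) and -1.04 ± 0.23 (adjusted p = 0.0002). Slco1a1, an organic anion uptake carrier, was lower by -1.14 ± 0.34 (adjusted p = 0.0079). B6 replicate 5, at 151.1 count equivalents, set much of the Slco1a1 difference, which was -0.62 without it (adjusted p = 0.14). Cyp7a1, the rate-limiting enzyme of bile acid synthesis, depended on 1 AJ animal. It was at 170.7, 323 and 1904 in B6 and at 10.8, 1784 and 2851 in AJ, and its difference of -1.32 ± 0.87 did not pass (adjusted p = 0.28). Without AJ replicate 6, the animal at 10.8, it was -2.22 (adjusted p = 0.046).

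In glucose metabolism 5 of 18 genes were higher and none was lower by limma (0 lower at an unadjusted p under 0.05, 1 lower by the rank-sum test), with a median of 0.10. Pklr, the liver pyruvate kinase that feeds lipogenesis, was at 1221, 2576 and 3320 against 862, 1143 and 1552 (1.00 ± 0.29, adjusted p = 0.0056). Gpd1, which makes the glycerol backbone of triglyceride, differed by 0.69 ± 0.17 (adjusted p = 0.001), and Pygl, liver glycogen phosphorylase, by 0.54 ± 0.14 (adjusted p = 0.0011). Insulin and FOXO1 signalling genes were 2 higher and 4 lower of 17 (median -0.24; 2 and 2 with equal totals). Lepr, the leptin receptor, was at 33.5, 54.5 and 125.9 in B6 and at 48.9, 218 and 391 in AJ (-1.78 ± 0.54, adjusted p = 0.0088). Grb14, an inhibitor of the insulin receptor, and Gcgr, the glucagon receptor, were higher in B6, by 0.65 ± 0.18 (adjusted p = 0.0041) and 0.36 ± 0.11 (adjusted p = 0.0084). Without AJ replicate 6 the Grb14 difference was 0.43 (adjusted p = 0.060).

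Of 15 genes of the growth hormone and IGF axis, 6 were lower in B6 and none was higher by limma (0 at an unadjusted p under 0.05 and 0 by the rank-sum test), with a median of -0.51 (5 lower with equal totals). Igfbp2, an IGF binding protein, was at 463, 1292 and 2057 in B6 and at 2159, 3029 and 4229 in AJ, without overlap (-1.39 ± 0.30, adjusted p = 0.00015). Igfbp3, the main carrier of IGF-1 in blood, was lower by -1.08 ± 0.21 (adjusted p = 2.7e-05), and Igf1 itself by -0.57 ± 0.13 (adjusted p = 0.00047). Prlr, the prolactin receptor, was lower by -1.19 ± 0.26 (adjusted p = 0.00017).

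Major urinary proteins, pheromone carriers made in large amounts by male liver, showed differences of large size. Of 17 tested, 9 were higher and 3 lower in B6 (median 1.46). Mup11 was at 6316, 76399 and 115792 in B6 and at 124.2, 200.3 and 271 in AJ (8.18 ± 0.67, adjusted p = 5.5e-20). Mup18 differed by 6.64 ± 0.39 (adjusted p = 5.7e-30), Mup20 (darcin, the male sex pheromone) by 5.11 ± 0.45 (adjusted p = 1.9e-18) and Mup19 by 4.56 ± 0.62 (adjusted p = 1.5e-09). On the other side, Mup2 was at 49.8, 804 and 1432 in B6 and at 4558, 11957 and 16332 in AJ (-4.18 ± 0.56, adjusted p = 1.1e-09), and Mup9 differed by -3.71 ± 0.55 (adjusted p = 2.3e-08). The Mup genes are near-identical copies whose number differs between strains, so the split of reads between single Mup genes is uncertain. Summed over the 18 Mup genes in the table, B6 animals held 105217 to 817608 count equivalents and AJ animals 169886 to 277055. The lowest B6 sum was that of replicate 5, below every AJ animal.

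Genes of drug and steroid metabolism went both ways, with 8 of 36 tested higher and 8 lower (median -0.05). The lower genes included Cyp2c39 (-5.66 ± 0.47, adjusted p = 9.2e-20), Cyp3a44 (-4.55 ± 0.57, adjusted p = 8.5e-11), Cyp2a4 (-3.38 ± 0.66, adjusted p = 2.1e-05) and Cyp2b9 (-2.68 ± 0.73, adjusted p = 0.0028). Cyp2c55 was higher by 3.03 ± 0.38 (adjusted p = 1.1e-10), and outside the list Cyp4a32 was lower (-3.04 ± 0.41) and Cyp4a12b higher (3.72 ± 0.43, adjusted p = 9.3e-10 and 4.1e-12). These cytochrome P450 families hold near-identical genes, and a value for 1 member is uncertain. Of 21 female-biased genes 3 were higher and 8 lower in these males (median -0.08), Cyp2a4, Cyp2b9 and Cyp3a44 among the lower ones. Of 21 male-biased genes 2 were higher and 8 lower (median -0.10), and this count was 3 and 5 without B6 replicate 5 (median 0.07). Ces2c, a carboxylesterase of the male-biased list, was higher by 2.39 ± 0.37 (adjusted p = 9e-08).

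**Figure D3:**
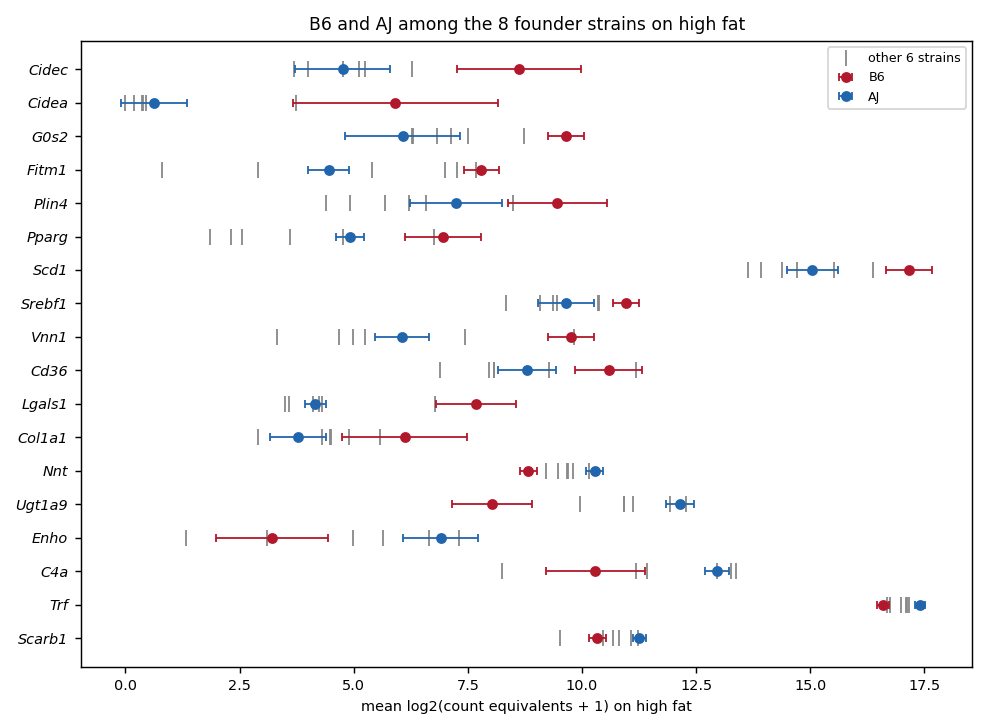
Mean level on high fat, as log2(count equivalents + 1), of 18 genes in B6 and AJ (coloured points, bars for the SD, n = 8) and in the 6 other founder strains (grey ticks, means; that of NOD leaves out replicate 3). Plin4 has its B6 mean, 9.46, above the ticks of the other strains, which end at 8.50, and Cd36 at 10.59 lies under the highest tick, 11.18.

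Complement and coagulation genes, which hepatocytes make for the plasma, were lower in B6 in large number: 19 of 29 were lower, 3 were higher, and the median was -0.39 (13 lower and 3 higher with equal totals). C8a and C8b code for parts of the membrane attack complex. C8a was at 2278, 5437 and 7346 in B6 and at 7481, 7929 and 9773 in AJ, without overlap (-0.76 ± 0.14, adjusted p = 1e-05), and C8b differed by -1.09 ± 0.20 (adjusted p = 9.4e-06). C1ra, a protease of the first complement complex, differed by -0.67 ± 0.07 (adjusted p = 3e-13). C4a, which shares most of its sequence with C4b so that its reads are uncertain, was at 253, 1488 and 3181 against 6711, 7504 and 10498 (-2.66 ± 0.31, adjusted p = 5.3e-12). The 3 higher genes included Hc, complement component C5, which is known to carry a frameshift in A/J and to be intact in B6. Hc was at 5221, 8245 and 9069 in B6 and at 1554, 2650 and 3214 in AJ (1.65 ± 0.17, adjusted p = 1.4e-14). F12, coagulation factor XII, was higher by 0.82 ± 0.07 (adjusted p = 5.9e-18).

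Other secreted proteins followed the same direction in part. Of 12 hepatocyte identity genes 6 were lower in B6 and none was higher (0 at an unadjusted p under 0.05 and 0 by the rank-sum test), with a median of -0.46. Alb was at 366949, 444491 and 565516 in B6 and at 543796, 730541 and 941360 in AJ (-0.73 ± 0.21, adjusted p = 0.0044). Trf was lower by -0.81 ± 0.17 (adjusted p = 5.3e-05), Cps1, of the urea cycle, by -0.63 ± 0.15 (adjusted p = 0.00061), and Serpina1a, an antitrypsin gene with near-identical copies, by -0.58 ± 0.14 (adjusted p = 0.00045). The summed level of the 12 genes was 580361 to 874992 count equivalents in B6 and 1033702 to 1399887 in AJ, so the groups did not overlap. In bulk liver, fewer cells of a type and less RNA per cell cannot be told apart. Of 25 acute phase genes 2 were lower (median -0.35): Saa4 by -1.01 ± 0.17 (adjusted p = 8.2e-07) and Apcs, serum amyloid P, by -1.92 ± 0.49 (adjusted p = 0.0016). Of 16 genes of the unfolded protein response 4 were lower, Pdia6 by -0.89 ± 0.14 (adjusted p = 1.8e-07), against 2 with equal totals and 1 without AJ replicates 2 and 6.

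Genes of glutathione metabolism and NRF2, the regulator of oxidative stress defence, were 8 higher and 2 lower of 24 (median 0.47; 11 and 0 by limma with equal totals, 5 and 2 without B6 replicate 5). Gstt3 was higher by 1.70 ± 0.32 (adjusted p = 1.4e-05), Gstm4 by 1.17 ± 0.21 (adjusted p = 4.4e-06) and Nqo1, a quinone reductase, by 1.33 ± 0.28 (adjusted p = 8.5e-05). Gsta1 was at 6.95, 22 and 262 in B6 and at 0, 4.86 and 16.5 in AJ (2.53 ± 0.67, adjusted p = 0.0021). Srxn1, sulfiredoxin, was higher by 0.76 ± 0.18 (adjusted p = 0.00048). Of 11 genes of hepatocytes around the central vein 4 were higher and none was lower by limma (2 at an unadjusted p under 0.05, 1 by the rank-sum test; median 0.44). They were Oat (1.47 ± 0.28, adjusted p = 1.5e-05), Lhpp (1.10 ± 0.22, adjusted p = 2.9e-05), Lgr5 (1.30 ± 0.39, adjusted p = 0.0079) and Glul, glutamine synthetase (0.79 ± 0.17, adjusted p = 0.00017). Without AJ replicates 2 and 6 the count was 3 higher and 1 lower, and Lgr5 was not called (0.96, adjusted p = 0.090). Of 12 periportal genes 3 were higher and 1 was lower (median 0.002).

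Markers of cells other than hepatocytes differed by cell type. Of 13 tested genes of stellate cells and fibrosis 6 were higher and none was lower by limma (median 0.65), also without B6 replicate 5. Col1a1, the main fibrillar collagen, was at 26.3, 50.2 and 358 in B6 and at 4.79, 13.9 and 23.5 in AJ, without overlap (2.34 ± 0.41, adjusted p = 2.4e-06). Without B6 replicate 5, the animal at 358, it differed by 2.00 (adjusted p = 6.3e-05). Col3a1 and Col1a2 were higher by 1.48 ± 0.31 (adjusted p = 0.0001) and 1.14 ± 0.28 (adjusted p = 0.0011). Pdgfrb, a receptor of stellate cells, was higher by 0.70 ± 0.19 (adjusted p = 0.0023), and Tagln, of contractile cells, by 0.60 ± 0.19 (adjusted p = 0.011). Lgals1, which codes for galectin-1 and is not on that list, was at 99.6, 193 and 543 against 14, 16.9 and 20.4 (3.52 ± 0.31, adjusted p = 6.4e-18).

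Genes of lipid-associated and monocyte-derived macrophages, cells known to gather in fatty liver, were 7 higher and 0 lower of 13 tested by limma (median 0.90), of which 2 were called by the rank-sum test and 1 without B6 replicate 5. Trem2, a lipid receptor of these cells, was at 3.28, 6.33 and 37.2 in B6 and at 0, 1.95 and 2.57 in AJ (1.75 ± 0.44, adjusted p = 0.0011), and remained called without that animal (1.44, adjusted p = 0.011). Gpnmb was at 1.09, 4.51 and 104.8 against 0, 2.35 and 5.94 (1.69 ± 0.63, adjusted p = 0.035), and was 1.16 without B6 replicate 5 (adjusted p = 0.18). The Gpnmb call was also lost without B6 replicate 1 or AJ replicate 2, 7 or 8 (1.44 to 1.51, adjusted p = 0.077 to 0.096). Itgax, Spp1 and Cd63 were called with B6 replicate 5 (1.61, 1.07 and 0.90, adjusted p = 0.0093, 0.0052 and 0.019) and not without it (1.30, 0.76 and 0.62, adjusted p = 0.051, 0.056 and 0.13). Cd63 was also lost without B6 replicate 1 (0.73, adjusted p = 0.076). On chow 1 gene of this list was higher and 1 lower in B6 by limma (median 0.51). Between diets within B6, 0 were called higher and 1 lower on high fat by limma (median 0.88). The summed level of the list was 706 to 3130 count equivalents in B6 on high fat (median 910). In B6 on chow it was 713 to 5173 (median 1215). Of 15 macrophage and Kupffer cell genes, none was called by limma (1 at an unadjusted p under 0.05, 1 by the rank-sum test; median 0.09). Their summed level was 3362 to 5298 count equivalents in B6 and 2509.6 to 5671 in AJ. Of 12 endothelial genes 2 were lower, Stab2, a scavenger receptor of sinusoids, by -0.94 ± 0.13 (adjusted p = 3.2e-09). Lymphocyte genes were low: 1 of 16 passed the filter. Their summed level was 30.7 to 255 in B6 (median 44.5) and 20.4 to 46.6 in AJ (median 40.1).

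**Figure D4:**
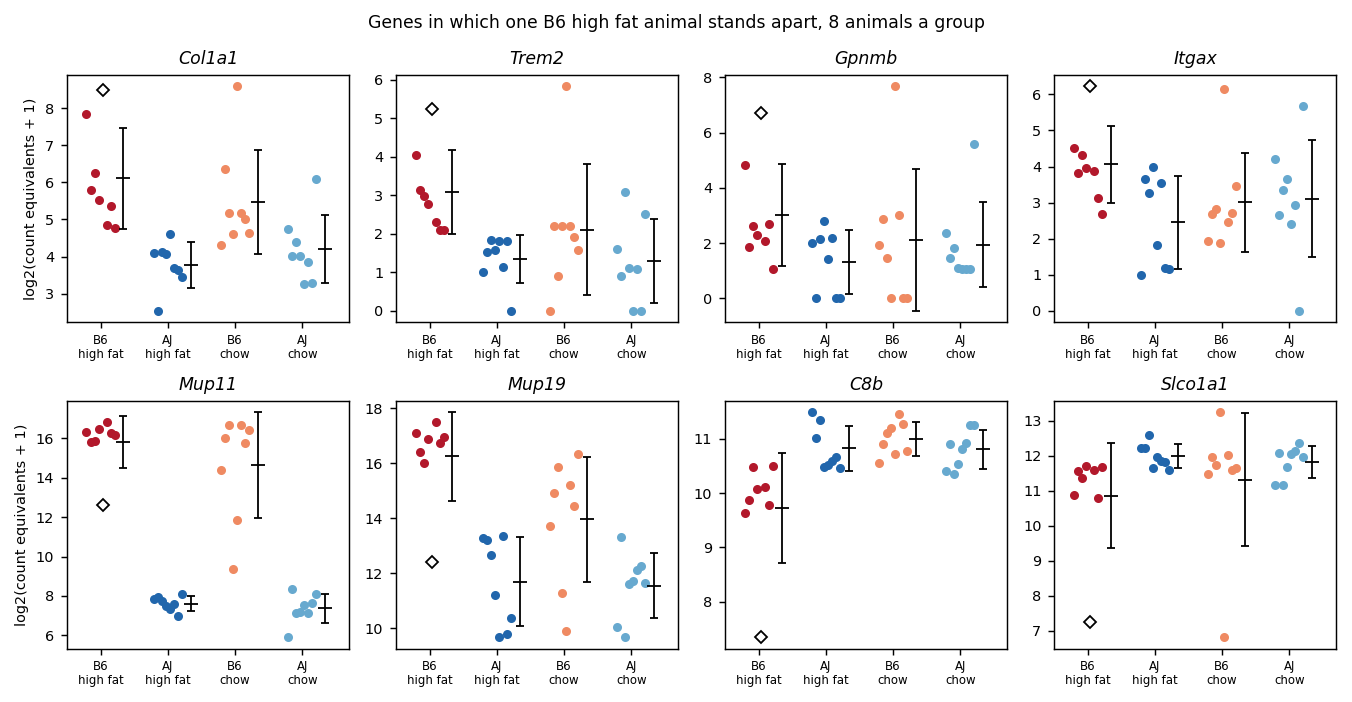
Level of 8 genes in each animal on high fat and on chow, as log2(count equivalents + 1), with bars for the mean and SD (n = 8 per group); the open diamond is B6 replicate 5 on high fat. That animal is the highest of its group for Col1a1 (358 count equivalents) and Gpnmb (104.8) and the lowest for Mup11 (6316), C8b (161.4) and Slco1a1 (151.1).

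Of 16 listed genes with alleles known to differ between B6 and A/J, 14 were tested. Of these 4 were higher and 3 lower in B6 (median 0.26), and the others were not called by limma. The called genes are described here, with Hc above. Nnt, the mitochondrial transhydrogenase that is deleted in part in C57BL/6J, was at 389, 459 and 553 in B6 and at 1062, 1199 and 1621 in AJ (-1.45 ± 0.12, adjusted p = 2.3e-19). Its B6 mean lay below the means of the 6 other strains and its AJ mean above them. Glo1, glyoxalase 1, which is duplicated in A/J, was at 2018, 2603 and 2683 against 5206, 6075 and 6727 (-1.23 ± 0.11, adjusted p = 4.5e-18). Dysf, dysferlin, which carries a retrotransposon in A/J, was at 34.2, 40.5 and 56.1 against 0.959, 7.06 and 11.2 (2.62 ± 0.26, adjusted p = 8.1e-16). Ifi202b, an interferon-inducible gene known to be silent in B6, was at 0 to 0.777 in B6 and at 10.1, 23.3 and 41.9 in AJ (-4.55 ± 0.34, adjusted p = 1.4e-22). Ahr, the aryl hydrocarbon receptor, and Naip2, an inflammasome sensor, were higher in B6, by 1.23 ± 0.29 (adjusted p = 0.00045) and 1.75 ± 0.27 (adjusted p = 6.7e-08).

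Further genes with large differences are given here. Ntrk2, the receptor for BDNF and a member of the female-biased list, was higher in B6 by 3.11 ± 0.53 (adjusted p = 1.2e-06), Mug2, a murinoglobulin, by 4.14 ± 0.35 (adjusted p = 1.1e-19), and Gvin1, an interferon-inducible GTPase, by 4.64 ± 1.08 (adjusted p = 0.00045). Rrm2, a subunit of ribonucleotide reductase, was the 1 called gene among 10 tested cell division genes (2.60 ± 0.41, adjusted p = 1.8e-07). Lower in B6 were Rps3a3 (-7.74 ± 0.40), H2-T10 (-4.21 ± 0.28) and Gbp11 (-4.36 ± 0.49), each with near-identical copies and uncertain, as well as Asic5, an ion channel (-4.30 ± 0.26), Abhd1 (-4.08 ± 0.38) and Arhgef10 (-3.26 ± 0.30). Interferon response genes were 4 higher and 1 lower of 24 (median 0.10), with Oasl1 higher by 1.504 ± 0.35 (adjusted p = 0.00035) and Igtp lower by -1.12 ± 0.30 (adjusted p = 0.0023). Without AJ replicates 2 and 6 the count was 7 higher and 1 lower.

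The means of B6 and AJ were placed among those of the other strains. Choosing genes by the difference between B6 and AJ favours extreme means in these strains, so the following counts are a description. Among the 678 genes more than 2-fold higher in B6, the B6 mean was above those of the 6 other strains in 249 and the AJ mean was below them in 236. Among the 361 genes more than 2-fold lower in B6, the B6 mean was below the others in 30.7% and the AJ mean was above them in 37.7%. Over all 13536 genes tested the B6 mean was above the others in 1564 and below in 1321, and the AJ mean above in 1815 and below in 1531. NZO, an obese strain, had the highest mean of the 6 for Cidec (6.29 on the log2 scale, against 8.63 in B6 and 4.76 in AJ), Cidea (3.74 against 5.91 and 0.63), Plin4 (8.50 against 9.46 and 7.24) and G0s2 (8.73 against 9.65 and 6.07). For Cd36 the NZO mean, 11.18, was above that of B6, 10.59. AJ was within the range of the 6 others for Cidec, Cidea, Plin2, Plin4 and Pparg, and below them for G0s2 and Lipe.

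The same strains on chow showed which differences were present without high fat. On chow 2055 of 13536 genes were called (15.2%), 1161 higher (8.58%) and 894 lower in B6 (6.6%), or 56.5% higher. With equal totals 70.3% of 2053 chow calls were higher in B6. Without the 2 libraries nearest to another strain, 2239 were called. The chow and high fat comparisons share no animals. Of the high fat calls 46.8% were also called on chow in the same direction, and of the chow calls 77.2% were called on high fat in the same direction, 1586 genes in all, with 1 in the opposite direction. Without those 2 libraries the shares were 49.7% and 75.3%. Across genes, which are not independent replicates, the differences on both diets had a Pearson r of 0.84 and a Spearman rho of 0.70. Genes called on both diets included Mup11 (7.28 on chow), C4a (-2.77), Cyp2c39 (-6.25), Hc (1.63), Nnt (-1.44), Vnn1 (3.55) and Fitm1 (2.76).

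The lipid lists had smaller counts on chow. Of the 20 lipid droplet and uptake genes, 4 were higher in B6 on chow and none was lower by limma, with a median of 0.43 (5 higher without the 2 libraries). Of the 21 synthesis genes, 0 were higher by limma (0 at an unadjusted p under 0.05, 0 by the rank-sum test) and 3 were lower on chow, with a median of 0.02. Complement and coagulation genes were 5 higher and 10 lower on chow (3 and 13 without the 2 libraries). Male-biased genes were 8 higher and 1 lower on chow (7 and 1 without the 2 libraries). The difference between diets was tested by the interaction term for each gene, and for most lipid genes it did not pass. Cidec differed by 1.39 on chow (adjusted p = 0.12) and its interaction was 2.48 ± 0.87 (adjusted p = 0.53). Scd1 differed by 0.79 on chow (adjusted p = 0.27), with an interaction of 1.33 ± 0.65 (adjusted p = 0.86). Cd36 had an interaction of 1.45 ± 0.40 (adjusted p = 0.24).

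The response to diet within a strain, which uses the same animals, was called in 427 genes in B6 (3.15%), 269 of them higher on high fat, and in 18 genes in AJ (0.133%), 9 of them higher. Without the 2 libraries the counts were 482 and 34. Of the lipid droplet and uptake list, 7 of 20 genes were higher and 1 was lower on high fat in B6, against 0 in either direction in AJ. Cidec rose by 3.26 in B6 (adjusted p = 0.0002) and had a difference of 0.78 in AJ (adjusted p = 0.89). Cd36 rose by 2.25 in B6 (adjusted p = 6.3e-09), with 0.80 in AJ (adjusted p = 0.41). Fitm1 and Vnn1 rose in both strains, Fitm1 by 1.94 in B6 (adjusted p = 2.3e-06) and 1.35 in AJ (adjusted p = 0.013), and Vnn1 by 2.31 (adjusted p = 0.00062) and 2.14 (adjusted p = 0.012). Cholesterol synthesis and uptake genes were lower on high fat in 14 of 24 in B6 and in 3 of 24 in AJ, while few differed between the strains on either diet. The median change of this list was similar, -0.88 in B6 and -0.86 in AJ, and 0 of the 24 had a called interaction. A call in B6 and none in AJ does not show that the responses differed, which is what the interaction tests.

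The strain difference itself depended on diet in 12 genes (0.0887%). At an unadjusted p under 0.05 there were 762 of 13536, near the share of 0.05 that chance alone gives at that threshold. Cidea had the largest interaction of the 12, 5.35 ± 0.60 (adjusted p = 1e-10): it was at 0, 0 and 2.5 count equivalents in B6 on chow and at 0, 0.813 and 1.12 in AJ on chow, so that high values were found in B6 on high fat and not in the other 3 groups. Cfd, complement factor D or adipsin, is known as a product of fat cells. It was at 25.4, 67.5 and 329 in B6 on high fat, at 0, 0 and 3.71 in AJ on high fat, at 0, 0.927 and 8.92 in B6 on chow and at 0, 0 and 6.3 in AJ on chow (interaction 5.16 ± 0.60, adjusted p = 3.1e-10). Of the 8 fat cell markers listed, Adipoq, Lep and Plin1 were at 0 in each of the 16 animals on high fat, 4 of the 8 were at 0 throughout, and Retn did not exceed 1.24. Car3, a fat cell marker that is also high in liver and the other listed gene to pass the filter, was at 7506, 12858 and 20081 in B6 and at 13973, 20539.7 and 28412 in AJ (-0.62 ± 0.35, limma adjusted p = 0.20, and 0.019 by the exact rank-sum test). The summed level of the 8 markers, nearly all of it Car3, was 7539.8 to 20130.3 in B6 and 13982 to 28418 in AJ. Enho, which codes for adropin, a secreted peptide of liver and brain, was at 0.845, 9.36 and 33.5 in B6 on high fat and at 45, 86.4 and 208 in B6 on chow. AJ animals held 38.3, 129.7 and 223 on high fat and 66.2, 155.3 and 237 on chow (interaction -3.09 ± 0.65, adjusted p = 0.0088). Enho therefore fell with high fat in B6 (-3.36, adjusted p = 6.3e-08) and did not pass in AJ (-0.27, adjusted p = 0.97).

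Csad, which makes taurine for bile acid conjugation, went from 351, 1036 and 2649 in B6 on chow to 182, 322 and 1174 on high fat. It was at 67.7, 108.6 and 170.2 in AJ on chow and 145.99, 215 and 295 on high fat. Without B6 chow replicate 4, Csad was at 423, 1301 and 2649 in B6 on chow. Its strain difference was 3.20 on chow and 0.91 on high fat, where its adjusted p of 0.05 lay at the threshold (interaction -2.28 ± 0.51, adjusted p = 0.023). C8b was lower in B6 on high fat and did not pass on chow (0.19, adjusted p = 0.62), with an interaction of -1.28 ± 0.29 (adjusted p = 0.026). Ugt1a9, a glucuronosyltransferase, shares exons with the rest of the Ugt1a cluster and is uncertain for that reason. It was at 130.2, 247 and 857 in B6 on high fat and at 417, 633 and 1491 in B6 on chow. Without B6 chow replicate 4, the B6 chow values were 417, 476 and 1057. AJ animals were at 3677, 4189 and 6579 on high fat and at 3013, 3731 and 5119 on chow (interaction -1.61 ± 0.35, adjusted p = 0.017). The other 6 genes had a mean log2 level under 5, which the naming rule leaves out, and are named after their values were seen. They were Ephb2, an ephrin receptor (interaction 3.29, adjusted p = 0.0032), Tpm2, a tropomyosin (2.91, adjusted p = 0.0041), Themis, a T cell signalling gene (3.12, adjusted p = 0.0088), A4gnt, a glycosyltransferase (2.51, adjusted p = 0.0068), Fhit (1.55, adjusted p = 0.0035) and Dcaf12l1 (1.497, adjusted p = 0.036).

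Themis was at 18, 108.3 and 259 in B6 on high fat and at 2.02, 5.97 and 11.1 in AJ on high fat, without overlap. Cd3e, a marker of T cells that did not pass the filter, was at 0, 1.64 and 7.72 in B6 and at 1.01, 3.9 and 6.18 in AJ. Tpm2 was at 63.5, 101.6 and 140.1 against 0, 3.2 and 10.1. Of the 12 genes 3 were called under each of 11 other settings, namely Cidea, Cfd and Tpm2, and leaving out the 2 libraries nearest to another strain raised the count to 19.

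**Figure D5:**
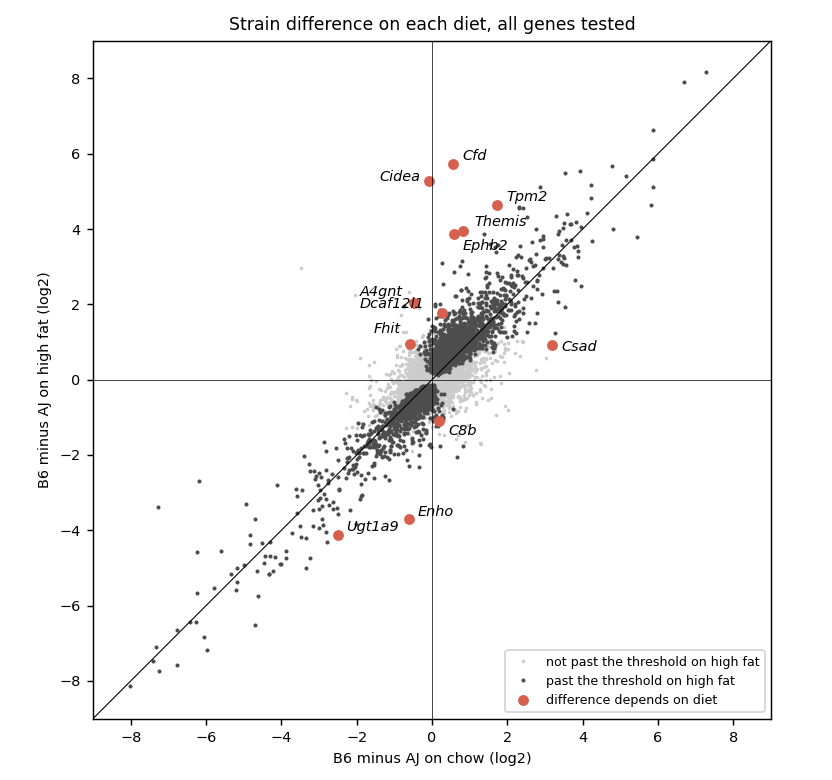
B6 minus AJ difference of each of 13536 genes on chow (horizontal axis) and on high fat (vertical axis), in log2 units, with the 12 genes whose difference depended on diet in red and a line at equal differences. Most genes lie along the line (Pearson r 0.84 across genes); Cidea and Cfd stand above it, near 0 on chow and at 5.29 and 5.73 on high fat, and Enho below it at -3.71 on high fat.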

How the data were processed

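Livers of 8 B6 and 8 AJ males on high fat were analysed within the 128 founder libraries (100 base reads). The tools named in the submitters' processing notes are CASAVA 1.8.0, Bowtie 0.12.8 and RSEM 1.2.1, with the build NCBIM37 (mm9). The submitters' name for the founder data says that the founder reads were aligned to strain genomes. The authors deposited a signal per gene, scaled so that each library's upper quartile is 1. On average 82.6% of low values in the 16 libraries were whole multiples of 1 step within 0.1, so no count test was run. Symbols came from GENCODE M21 (22760 of 24965 genes).

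The signal was multiplied by 114.943. limma 3.58.1 (R 4.3.3) was fitted with a trend to log2(count equivalents + 1), with 16 group means over 128 libraries, for the 13536 genes that reached 10 count equivalents in 8 libraries. It was checked on simulated data. p-values were adjusted over all genes tested. Groups, lists and members were chosen with earlier results of these data known. Genes named are, past the threshold and leaving out predicted symbols, the 14 largest differences either way with a mean log2 value of 5 or more, the 10 smallest interaction p (called or not) under the same bound on the mean, up to 4 genes of a list with the smallest p, and 2 panels of known alleles and lipid genes. Not every gene picked is described, and further list members were named after their values were seen. Alternatives covered the test, filter, pseudocount, scaling, lane and each animal left out; recounts of lists without animals that stood apart were chosen after seeing the data.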

Additional observations from a re-analysis of the deposited data

Results flagged for a closer look

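Across the genes named for high fat, 44 values stood apart from the 7 other animals of their strain by a gap above Dixon's 95% critical value, over 256 groups of 8 looked at, where chance gives about 1 in 20 groups. B6 replicate 5 gave 19 of them. It was the lowest B6 animal for Mup11 (6316 count equivalents, against 57827 to 115792 in the others), Mup19 (5491), Mup2 (49.8) and Mup9 (133.5). It was also lowest for the plasma protein genes C8b (161.4, others 798 to 1448), C8a (2278), Hc (5221), C1ra (1483), Saa4 (2794), Serpina1a (15920.4), Apoh (7687) and Lcat (1299). Bile acid and transport genes were low there too, with Cyp7b1 at 238 (others 926 to 1748) and Slco1a1 at 151.1 (others 1772 to 3333), as were Cyp4a12b (160.96), Gcgr (1329) and Glo1 (2018). The same animal was the highest for the glutathione and NRF2 genes Gstm4 (456, others 213 to 304) and Srxn1 (769, others 242 to 379.9).

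AJ replicate 6 was the lowest AJ animal for Cyp7a1 (10.8, others 963 to 2851), Srebf1 (328, others 718 to 1350.1), Gpam (348), Grb14 (71.8), Gcgr (945) and Cideb (935). It was the highest for Scarb1 (3035), Stab2 (1300.3) and Cd63 (46.7). AJ replicate 2 was highest for the interferon-inducible genes Gbp11 (2331, others 148.3 to 511) and Oasl1 (259.6, others 13.9 to 52.7), and lowest for Mup2 (4558) and Dysf (0.959). B6 replicate 3 was highest for Trf (120235) and Gvin1 (1573, others 254 to 592), and lowest for Mup18 (6875), Cyp2b9 (3.43, others 77.7 to 980.2) and A4gnt (0.857). Single genes set apart B6 replicate 7 (Oat at 19020.2, others 4249 to 8353), B6 replicate 4 (H2-T10 at 4.14), B6 replicate 1 (Ifi202b at 0.777, others at 0), AJ replicate 1 (Ntrk2 at 3.03), AJ replicate 3 (Lepr at 48.9, others 167.7 to 391), AJ replicate 4 (Ephb2 at 0.991, others at 0) and AJ replicate 8 (Trem2 at 0).

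The B6 minus AJ difference itself differed between high fat and chow, by limma's interaction term with an adjusted p under 0.05, in 12 genes. The interaction was positive for Cidea (5.35), Cfd (5.16), Ephb2 (3.29), Themis (3.12), Tpm2 (2.91), A4gnt (2.51), Fhit (1.55) and Dcaf12l1 (1.497), and negative for Enho (-3.09), Csad (-2.28), Ugt1a9 (-1.61) and C8b (-1.28).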

How the results depend on the processing

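On high fat the count of called genes stayed within 1.5 times of 3392 under the other filter, pseudocounts and scalings, without the trend, with the rank-sum test and with the compared groups alone. It was 1237 with a null fold of 1.2, and 2887 (without B6 replicate 5) to 3449 when 1 animal was left out. On chow 2055 genes became 1368 with the exact rank-sum test and 829 with the null fold of 1.2. The count of genes with a diet-dependent difference, 12 in the main analysis, became 6 with the compared groups alone and 19 with a pseudocount of 5. It was 19 without the 2 libraries nearest to another strain, and 21 without these and B6 chow replicate 5. The last 2 settings were chosen after seeing the data, and the cause of the changes was not tested. With the compared groups alone Csad, Ephb2, Ugt1a9, Fhit, A4gnt, Themis, Dcaf12l1 and C8b lost their call (limma adjusted p = 0.20 to 0.47). The 6 genes called there therefore include genes outside the 12. Of the genes named for high fat, 93 were called in the main analysis and under each of 28 alternatives, and no call reversed. Alb was not called with the compared groups alone (adjusted p = 0.24) nor without the filter (0.091). The interaction of C8b was lost with the null fold and with the compared groups alone (adjusted p = 0.27 and 0.47), and that of Enho with a pseudocount of 0.1 (0.11). That of Ugt1a9 was lost without B6 chow replicates 4 and 5 and NOD high fat replicate 3 (-1.30, limma adjusted p = 0.062). Each of 8 lanes held 1 animal of each group. With lane as a replicate block the counts were 3409, 2056 and 12, and deviations of animals that shared a lane correlated by -0.20 to 0.12 on high fat and by -0.16 to 0.30 on chow, so lane was not treated as a pairing. Count depth limits genes at a few count equivalents, such as Cidea outside B6 on high fat.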
